A study of Danio rerio with 5 samples.

Results

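The genes examined were 10 genes of the vascular endothelial growth factor (VEGF) system of the zebrafish (Danio rerio). They comprised the receptor genes kdr, kdrl, flt1 and flt4, the ligand genes vegfaa, vegfab and vegfc, and the co-receptor genes nrp1a, nrp1b and nrp2a. They were chosen by name, with kdr and kdrl singled out because their log2 changes in this same comparison had been seen to differ. Every non-control probe that carries a RefSeq transcript of a listed gene was taken, which gave 22 of the 43603 probes of the array and 9 of the 10 genes, since no probe was matched to vegfab.

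The embryos were injected at the 1-cell stage and taken whole for RNA at 14 h post fertilization, and the RNA was read on 1-colour Agilent arrays. Embryos of the gata5/6 morpholino group (2 arrays) received 6.25 ng of morpholino against gata5 together with 1.25 ng against gata6, in 1 nl. The controls (3 arrays) were given 7.5 ng of a control morpholino in the same volume. A morpholino is a synthetic oligonucleotide that pairs with a chosen RNA and blocks its translation or splicing, and the labels state that this pair is reported to cause loss of gata4 expression too. No strain or genotype other than the injection is given, and the labels do not say whether arrays of a group came from separate clutches, so the spread between arrays may be technical.

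VEGF ligands are secreted dimers that bind receptor tyrosine kinases on endothelial cells and their precursors, the angioblasts, which arise in the lateral plate mesoderm. Zebrafish have a pair of VEGF-A receptors of the same class, Kdr and Kdrl, which act together in vessel formation. Flt1 binds VEGF-A and limits its supply to the other receptors, whereas Flt4 is the receptor of Vegfc and is best known for venous and lymphatic sprouting. Neuropilins are co-receptors that bind both VEGF ligands and class 3 semaphorins.

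Signals are given as a percentage of the 75th percentile of the array's non-control probes, and log2 changes are gata5/6 morpholino minus control. The percentile ranged from 506 to 574 intensity units, 70.1% to 71.1% of probes were well above background on each array, and no spot was saturated. The gata5/6 morpholino arrays lay on slide 2 and scan 2 and the control arrays on slide 1 and scan 1, so slide, scan and group cannot be told apart. The gata4 signal was lower after gata5/6 morpholino (log2 change -0.64, limma SE 0.0910), while the gata5 (1.98) and gata6 (2.85) RNA signals were higher. Levels of the targeted RNAs do not check a morpholino that may act on translation. Of the marker genes, 8 of 8 for neural tissue, 7 of 8 for skeletal muscle and 16 of 23 for endothelium and angioblasts had a probe well above background on every array of a group. Only 18 of these 23 were matched to a probe at all. In RNA of whole embryos, fewer cells of a type and less RNA per cell cannot be told apart.

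Of the 22 member probes, 18 passed the brightness filter (well above background throughout either group) and entered the fit across all 30616 such probes. These 18 probes stand for 8 genes, since both flt1 probes were too dim and vegfab had none. Both gata5/6 morpholino arrays lay below all control arrays for 10 of the 18, against 22.2% of all probes fitted, and above them for 2, against 25.3%. By limma with Benjamini-Hochberg adjustment over all probes, 5 of the 18 were past the threshold of 0.05, against 11.7% of all probes, and all 5 were lower (5.63% of all probes were called lower). These 5 were the 3 kdr probes, the flt4 probe and the brightest nrp1b probe. Without gata5/6 morpholino replicate 2 the count was 14, in a fit that called 44.3% of all probes. With only probes bright on all 5 arrays it was 3 (10.3% of all probes called), and with only the brightest probe of each gene it was 3 (15.0% of all genes called). Because the members were picked on this contrast, their values are a description, and no p-value is given for them. Of the 5 calls, 3 are of kdr, a gene singled out by its values in this contrast. The kdr probes A_15_P631106 and A_15_P133286 were well above background on neither gata5/6 morpholino array, and passed the filter through the control arrays alone. The 5 of 18 are therefore not read against the 11.7% as an enrichment.

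**Figure D1:**
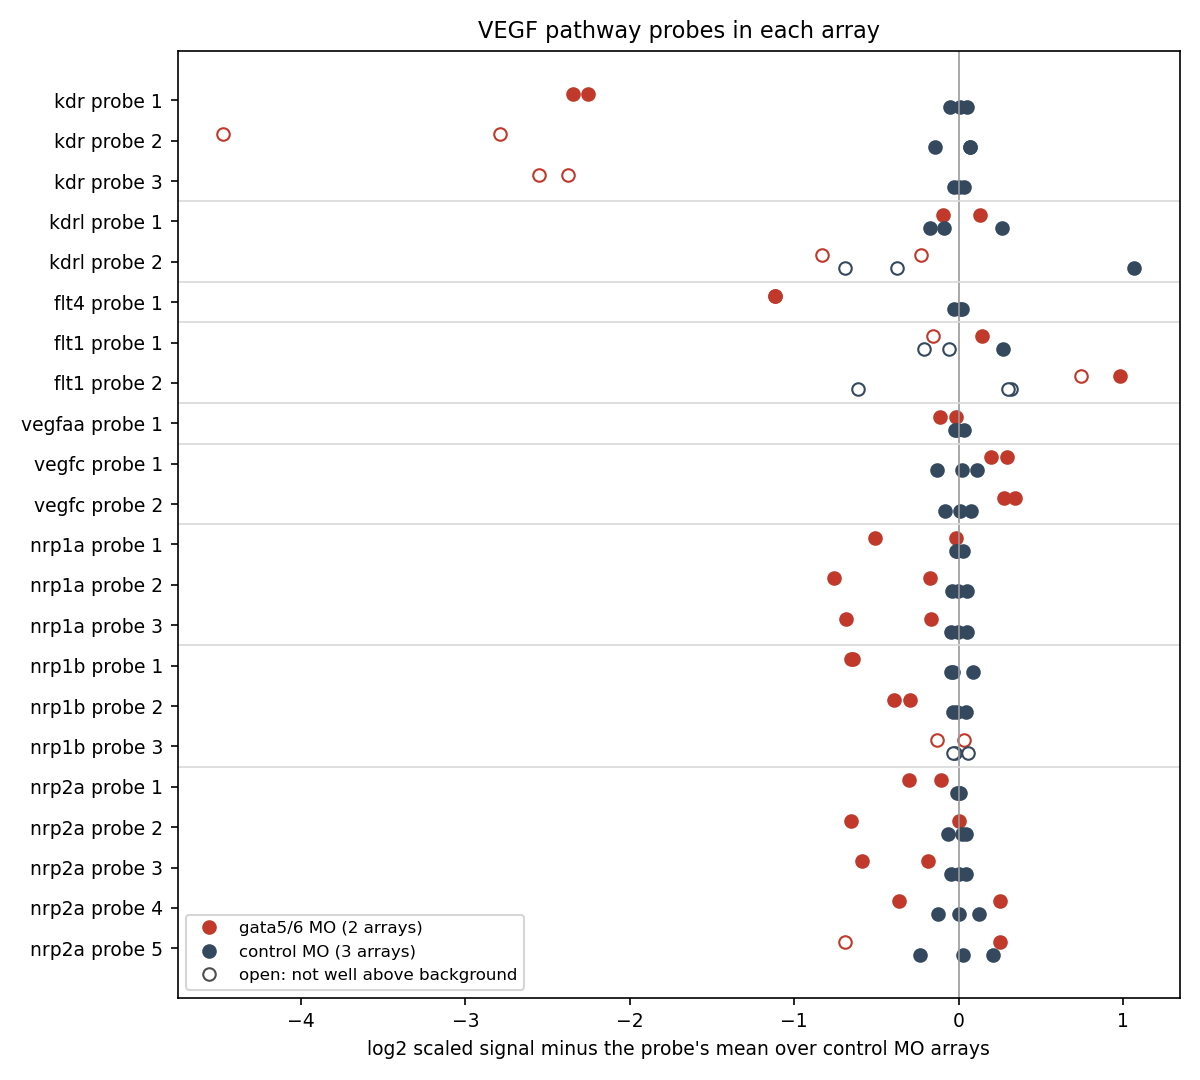
Each row is a probe, numbered by brightness in control embryos; the horizontal axis is the log2 scaled signal minus the probe's mean over the control morpholino arrays, and open symbols mark arrays on which the probe was not well above background. The 3 kdr probes and the flt4 probe sit far left of the controls in both gata5/6 morpholino arrays, kdrl probe 1 overlaps its controls, and the nrp1a and nrp2a probes show 1 gata5/6 morpholino array lower than the other.

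The kdr gene had lower signal after gata5/6 morpholino with every probe. On its brightest probe (A_15_P172556), the signal was 5.72% and 6.09% in the gata5/6 morpholino arrays, against 30.0%, 27.95% and 29.1% in the control arrays. The groups did not overlap, and all 5 arrays were well above background. The fitted log2 change was -2.30 (SE 0.0953, 95% interval -2.53 to -2.06), a 4.92-fold lower signal.

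The second kdr probe (A_15_P631106) read 0.434% and 1.40% in the gata5/6 morpholino arrays, against 10.1%, 10.1% and 8.74% in the control arrays. Neither gata5/6 morpholino array measured it well above background, so its level there is only a bound, and it was at least 4.81-fold lower than in controls. Its measured means were 0.916% ± 0.681 (SD, n = 2) after gata5/6 morpholino and 9.66% ± 0.798 (SD, n = 3) in controls. Its fitted log2 change of -3.63 (SE 0.459) is not a bound, and it was -4.47 to -2.79 with 1 gata5/6 morpholino array or the other left out. For this and the next probe, the bound sets the control mean against the higher of the probe's own signal and the lowest signal well above background on each gata5/6 morpholino array.

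The third kdr probe (A_15_P133286) gave 0.948% and 1.07% in the gata5/6 morpholino arrays, against 5.68%, 5.56% and 5.45% in the control arrays. It was likewise too dim on both gata5/6 morpholino arrays and was at least 2.77-fold lower (fitted log2 change -2.46, SE 0.101). Its means were 1.01% ± 0.0888 (SD, n = 2) after gata5/6 morpholino and 5.56% ± 0.117 (SD, n = 3) in controls. All 3 kdr probes thus parted the groups, and the size of the difference is measured on both sides by the brightest probe alone.

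The paralog kdrl did not show this difference. Its brighter probe (A_15_P150226) read 4.86% and 5.66% in the gata5/6 morpholino arrays, against 6.22%, 4.87% and 4.59% in the control arrays. It was well above background on all 5 arrays, the groups overlapped, and the log2 change was 0.02 (SE 0.162), with a 95% interval of -0.38 to 0.42. The scanner software's own error estimate of these spots was 0.630% to 0.756% of the 75th percentile, close to the SD over the control arrays (0.873%). The pair was chosen for its difference in this same comparison, so the gap between kdrl and kdr is a description and not a test.

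The other kdrl probe (A_15_P655591) was well above background on 1 array only, control replicate 3. It read 1.18% and 1.78% in the gata5/6 morpholino arrays, against 1.62%, 1.30% and 4.39% in the control arrays. At this level the probe gives no fold, and it was not fitted.

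The log2 difference of kdr minus kdrl within each array cancels any scaling factor of an array, and it was taken for all 6 pairs of a kdr and a kdrl probe. For the brightest probe of each gene it was 0.24 and 0.11 in the gata5/6 morpholino arrays, against 2.27, 2.52 and 2.67 in the control arrays. The means were 0.17 ± 0.09 (SD, n = 2) after gata5/6 morpholino and 2.49 ± 0.20 (SD, n = 3) in controls, a change of -2.31. With normexp background correction this pair gave -1.02. Each of the other 5 pairs holds a probe that was too dim in both gata5/6 morpholino arrays, so no size is given for them, although both gata5/6 morpholino arrays lay below the controls there too. The pairs share arrays and probes, so they are not independent of each other, and the absolute difference between probes has no meaning as a level. In pairs with the dim kdrl probe, control replicate 3 stood closer to the gata5/6 morpholino arrays than the other controls did.

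**Figure D2:**
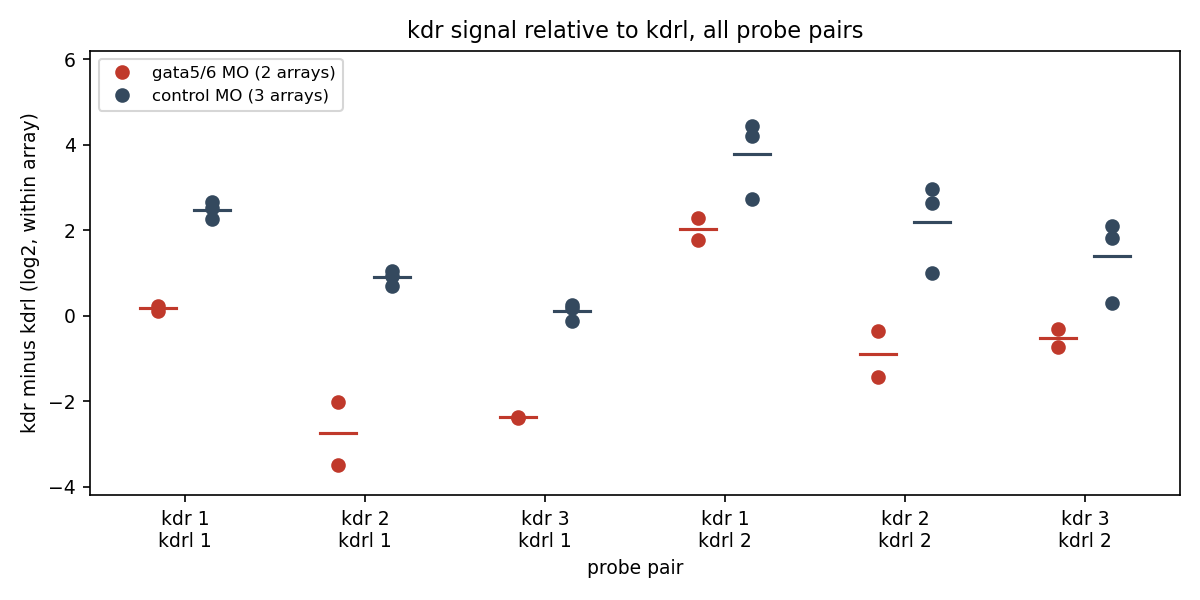
For each of the 6 probe pairs the points give the log2 signal of the kdr probe minus that of the kdrl probe on every array, with a bar at the group mean; probes are numbered by brightness in control embryos. The 2 gata5/6 morpholino arrays lie below the 3 control arrays in each pair, but the pair of probes 1 is the only one in which both probes were well above background on all 5 arrays. The control points spread most in the 3 pairs with kdrl probe 2.

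The Vegfc receptor gene flt4 was also lower after gata5/6 morpholino. Its single probe read 24.9% and 24.8% in the gata5/6 morpholino arrays, against 54.8%, 52.9% and 54.2% in the control arrays. The 2 gata5/6 morpholino values nearly coincided and lay well clear of the controls. The log2 change was -1.12 (SE 0.0892, 95% interval -1.34 to -0.90), a 2.17-fold lower signal. With 1 probe for the gene, no other probe checks this value.

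The decoy receptor gene flt1 was close to background throughout. Its first probe read 2.09% and 1.70% in the gata5/6 morpholino arrays, against 2.29%, 1.82% and 1.64% in the control arrays, and was well above background on 1 array of each group. Its second probe read 1.90% and 2.24% in the gata5/6 morpholino arrays, against 0.740%, 1.41% and 1.40% in the control arrays, and was well above background on gata5/6 morpholino replicate 2 only. The groups overlapped on the first probe, and on the second both gata5/6 morpholino values were above the controls. The lowest signal well above background was 1.88% to 2.14% on these arrays, so a difference in flt1 was not detectable at this level.

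Among the ligand genes, vegfaa, the zebrafish VEGF-A gene that drives early angioblast and artery formation, differed little. Its probe read 15.4% and 14.4% in the gata5/6 morpholino arrays, against 15.4%, 15.5% and 16.0% in the control arrays. The groups overlapped, and the log2 change was -0.06 (SE 0.0932, 95% interval -0.29 to 0.16).

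The ligand gene of Flt4, vegfc, had the higher signal after gata5/6 morpholino with both probes. Its brighter probe read 33.0% and 30.8% in the gata5/6 morpholino arrays, against 29.0%, 24.6% and 27.3% in the control arrays. Its second probe read 14.4% and 13.7% in the gata5/6 morpholino arrays, against 11.9%, 10.7% and 11.4% in the control arrays. Both gata5/6 morpholino arrays lay above all controls on each probe, with log2 changes of 0.25 (SE 0.112) and 0.31 (SE 0.0994). Neither probe was past the threshold across all probes.

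Of the 10 fitted co-receptor probes, 1 was called lower, against 5.63% of all probes fitted. Both gata5/6 morpholino arrays lay below all control arrays on 6, against 22.2% of all probes, and the groups overlapped on 4. Several probes stand for the same gene, so they are not independent of each other. The log2 changes of the 10 probes were -0.65 to -0.05, with a median of -0.34. The median log2 change of all probes fitted was 0.00081, and 15 of the 18 member probes were below 0.

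The nrp1b probes were alike in both gata5/6 morpholino arrays. The brightest read 16.3% and 16.1% in the gata5/6 morpholino arrays, against 24.8%, 27.0% and 24.6% in the control arrays, a log2 change of -0.65 (SE 0.0966, 95% interval -0.89 to -0.41). The second read 7.96% and 7.47% in the gata5/6 morpholino arrays, against 10.1%, 9.56% and 9.72% in the control arrays (log2 change -0.34, SE 0.0940). The groups did not overlap on either probe. The call of the brighter probe across all probes was lost without control replicate 1, 2 or 3 (-0.67, -0.61 and -0.68) and with a variance for each group. The other nrp1b probe passed the background limit nowhere, with 0.420% to 0.480% throughout.

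The nrp1a probes split the gata5/6 morpholino arrays. The brightest read 172.0% and 241.6% in the gata5/6 morpholino arrays, against 242.9%, 249.3% and 241.2% in the control arrays, so that replicate 1 was lower than every control and replicate 2 lay among them. The second read 32.9% and 49.2% in the gata5/6 morpholino arrays, against 57.5%, 55.4% and 54.0% in the control arrays. The dimmest read 14.5% and 20.8% in the gata5/6 morpholino arrays, against 24.3%, 23.3% and 22.6% in the control arrays. Replicate 1 minus replicate 2 was -0.58 to -0.49 on the log2 scale, larger than the fitted changes of -0.26, -0.47 and -0.43 (SE 0.157, 0.178 and 0.165). Without replicate 1 these changes were -0.02, -0.18 and -0.17, and without replicate 2 they were -0.51, -0.76 and -0.69.

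The nrp2a gene had 5 fitted probes and the same split. Its brightest probe read 48.6% and 55.6% in the gata5/6 morpholino arrays, against 60.1%, 59.5% and 60.4% in the control arrays, a log2 change of -0.21 (SE 0.102). The other 4 gave log2 changes of -0.39 to -0.05. On 3 of the 5 probes the groups overlapped, with replicate 2 among or above the controls. Replicate 1 was below replicate 2 on all 5. For 3 nrp2a probes the sign turned when replicate 1 was left out (log2 changes of 0.0020, 0.25 and 0.25), and for 1 of them also without control replicate 2 (0.0091) and with normexp (0.03).

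Across all probes fitted, replicate 1 minus replicate 2 of the gata5/6 morpholino group had a median of -0.0058 on the log2 scale, its 5th and 95th percentiles were -0.70 and 0.56, and replicate 1 was the lower on 50.6% of probes. The nrp1a and nrp2a differences, -0.95 to -0.19, thus lay mostly inside that range. The median SD of a probe was 0.186 over the gata5/6 morpholino arrays and 0.0762 over the control arrays, on the log2 scale.

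**Figure D3:**
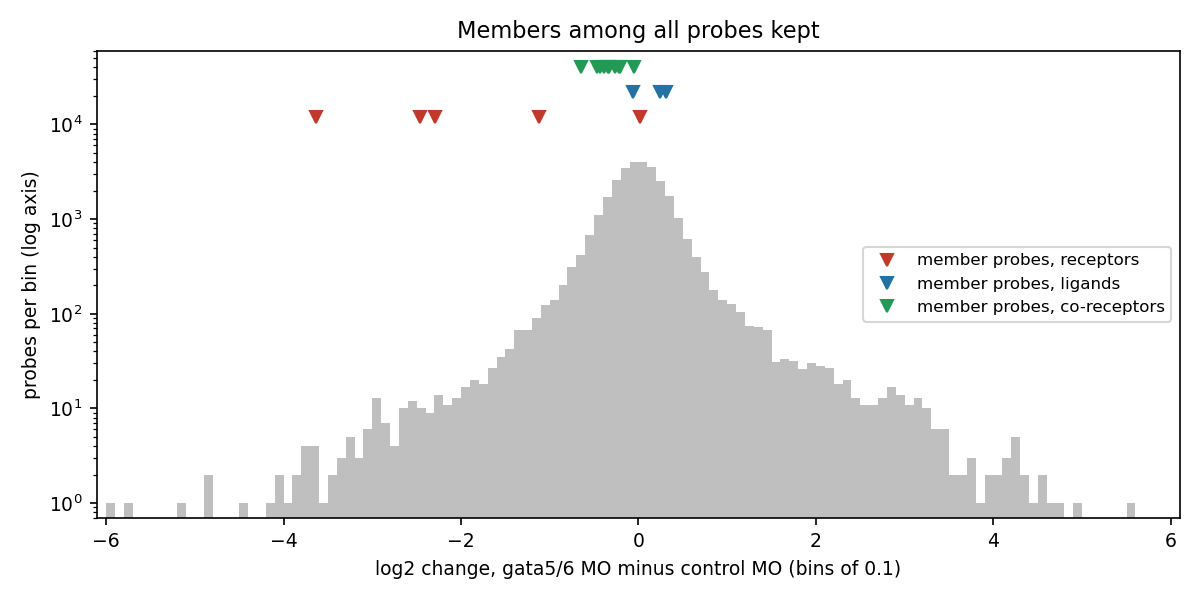
Grey bars count all 30616 fitted probes by log2 change (log vertical axis), and triangles mark the 18 fitted member probes by role. The 3 kdr probes and the flt4 probe stand at -3.63 to -1.12, while kdrl, the ligands and the co-receptors lie between -0.65 and 0.31 near the centre.

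Ranked from the lowest log2 change, 0.343% of all fitted probes lay below the brightest kdr probe and 1.66% below the flt4 probe. For the brighter nrp1b probe this share was 4.84%, for the vegfaa probe 41.4%, for kdrl 52.1% and for the brighter vegfc probe 78.7%. Ranks of the dim kdr probes rest on fitted values that are not bounds.

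The genes whose pattern over the 5 arrays was most like that of kdr were found by Euclidean distance of the log2 signals, each centred on its control mean, among 10791 genes by their brightest probe, leaving out placeholder names. The nearest were the potassium channel gene kcnc2 (distance 0.202, log2 change -2.42), the mitochondrial uncoupling protein gene ucp1 (0.261, -2.33) and the carotenoid oxygenase gene bco2l (0.288, -2.46). Next came the aquaporin gene aqp3a (0.304, -2.28) and the myeloid factor gene spi1b (0.359, -2.11). The kcnc2 probe was too dim on both gata5/6 morpholino arrays, and aqp3a was on 1 of the 2. With 2 groups and so few arrays, this measure picks out little beyond a similar size of difference.

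Other VEGF genes on the array were few. Beside them, 6.39% of all genes were called higher and 5.87% lower, with a median over all genes of 0.04 on the log2 scale. The gene ccbe1, whose product helps to activate Vegfc, was called higher (log2 change 0.74, limma SE 0.168, adjusted p = 0.0427), with 11.95% and 15.1% in the gata5/6 morpholino arrays, against 8.71%, 8.76% and 6.79% in the control arrays. This call was lost without any one of the control arrays (0.62 to 0.81), with no filter on dim probes and with the percentile over bright probes. It was also lost with normexp and with a variance for each group. The ccbe1 change was 0.57 without gata5/6 morpholino replicate 2. The co-receptor gene nrp2b had a log2 change of -0.55 (SE 0.154, adjusted p = 0.0749), with 1018% and 1413% in the gata5/6 morpholino arrays, against 1782%, 1722% and 1769% in the control arrays. It passed with trend and robust settings (adjusted p = 0.0469 by limma), and its log2 change was -0.79 without gata5/6 morpholino replicate 2. These were the 2 measured genes of 9 in that list, of which 1 rose.

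Genes that carry the signal inside the cell mostly did not pass. Of 24 measured transducers of VEGF receptors, 1 rose, none fell and 23 were not called. Their median log2 change was -0.17. The gene that rose was the kinase gene akt2, with 1374% and 1673% in the gata5/6 morpholino arrays, against 622.8%, 611.7% and 606.2% in the control arrays (log2 change 1.31, SE 0.116, adjusted p = 0.00201 by limma). The focal adhesion kinase genes ptk2ab (-0.31, adjusted p = 0.132) and ptk2aa (-0.77, adjusted p = 0.149) did not pass. Without gata5/6 morpholino replicate 2 their log2 changes were -0.43 and -1.13. The other fitted ptk2aa probe gave a smaller log2 change of -0.34.

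Hypoxia factors and regulators, which control VEGF-A, were measured in 8 of 14 listed genes. The rest, among them the HIF-1 alpha genes, had no matched probe. None of the 8 was called by limma, and 1 had an unadjusted p under 0.05. The share of all probes under this unadjusted limit was not taken, here or for the counts below. It is at least the 11.7% that were called. The nearest to a call was the HIF-2 alpha gene epas1b (log2 change 1.01, SE 0.255, adjusted p = 0.0579 by limma). Its other fitted probe gave a smaller log2 change of 0.30. The brightest epas1b probe had 41.8% and 22.6% in the gata5/6 morpholino arrays, against 14.2%, 15.9% and 15.7% in the control arrays. It passed at the gene level (adjusted p = 0.0491 by limma) and with trend and robust settings. Its log2 change was 0.57 without gata5/6 morpholino replicate 1 and 1.46 without replicate 2. The VHL gene vhl (0.29, adjusted p = 0.220) and the HIF partner gene arnt (-0.31, adjusted p = 0.322) followed. The arnt change was -0.60 without gata5/6 morpholino replicate 2.

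Partners of the neuropilins were measured in 11 of 19 listed genes, of which 1 fell and the other 10 were not called. Their median log2 change was -0.14. The gene that fell was the semaphorin gene sema3e, whose product binds plexin D1 (log2 change -1.10, SE 0.215, adjusted p = 0.0271 by limma), with 2.36% and 3.83% in the gata5/6 morpholino arrays, against 5.97%, 7.02% and 6.45% in the control arrays. This call was lost without any one of the control arrays (-1.16 to -1.04), with no filter on dim probes and with a variance for each group. The genes sema3aa (-0.35, adjusted p = 0.111) and plxna4 (-0.41, adjusted p = 0.254) did not pass. The plxna4 change was -0.75 without gata5/6 morpholino replicate 2.

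Of 4 measured genes listed with the related receptor kinases, none was called by limma, and 2 had an unadjusted p under 0.05. The gene pdgfra gave a log2 change of -0.34 (adjusted p = 0.133), pdgfrl 1.04 (adjusted p = 0.168) and kita -0.15 (adjusted p = 0.381). The pdgfra change was -0.48 without gata5/6 morpholino replicate 2, and that of pdgfrl passed without control replicate 2 (1.45). The pdgfrl probe had 4.70% and 3.37% in the gata5/6 morpholino arrays, against 1.25%, 3.37% and 1.71% in the control arrays. Control replicate 2 was the only control array well above background, so pdgfrl entered the fit through the gata5/6 morpholino arrays alone. Among 3 measured PDGF and angiopoietin ligands, 1 rose. The angiopoietin gene angpt2b, whose product acts on the Tie2 receptor, had 60.8% and 57.2% in the gata5/6 morpholino arrays, against 28.05%, 26.3% and 27.8% in the control arrays (log2 change 1.11, SE 0.0949, adjusted p = 0.00176). The genes pdgfab (-0.06, adjusted p = 0.839) and pdgfaa (-0.00035, adjusted p = 0.999) did not pass.

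The kinase genes kita and pdgfra also lie beside kdr in the genome, in the gene order of the RefSeq assembly GRCz12tu. Around kdr, of the 5 nearest measured genes on each side, taken by position after the kdr values were known, 1 fell and 9 were not called, 4 of the 10 had an unadjusted p under 0.05, and the log2 changes were -1.16 to 0.36. The gene that fell was lnx1, which encodes a ubiquitin ligase (-1.16, SE 0.146, adjusted p = 0.00665 by limma). The adjacent measured gene srd5a3 gave 0.29 (adjusted p = 0.213). Around kdrl, none of 10 was called by limma, 1 had an unadjusted p under 0.05, and their log2 changes were -0.29 to 0.22. With no share of all probes under the unadjusted limit beside them, these counts cannot be read as high or low.

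**Figure D4:**
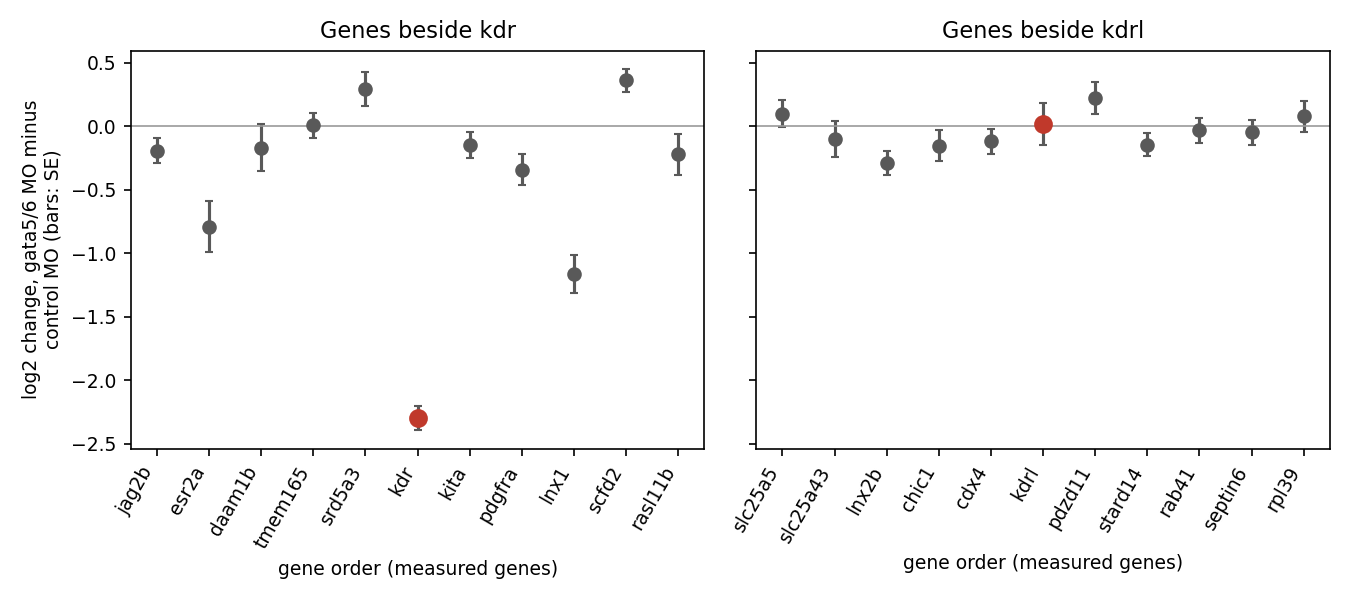
Points give the log2 change (gata5/6 morpholino minus control, bars show the limma SE) of the brightest probe of kdr, left, and kdrl, right, in red, and of the 5 nearest measured protein-coding genes on either side in RefSeq order. The kdr value of -2.30 lies below its neighbours, which lie between -1.16 and 0.36, and kdrl lies among its neighbours.

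Endothelial and angioblast genes other than the members were mostly not called. Of 16 measured, 4 rose, none fell and 12 were not called. Their median log2 change was 0.23, and the summed signal was 4052% to 4229% in the gata5/6 morpholino arrays, against 3916% to 4035% in the control arrays. Without lmo2 these sums overlapped, at 3356% to 3689% in the gata5/6 morpholino arrays, against 3528% to 3612% in the control arrays. They also overlapped when etsrp, clec14a, egfl7, tal1 or dusp5 alone was left out. Without gata2a, whose signal was lower after gata5/6 morpholino, the sums stood further apart. They were then 3172% to 3285% in the gata5/6 morpholino arrays, against 2698% to 2855% in the control arrays. The cadherin gene cdh5, which marks differentiating endothelium, rose at least 1.73-fold, with no control array well above background (adjusted p = 0.00668 by limma), so that it entered the fit through the gata5/6 morpholino arrays alone. Log2 changes were 0.52 for etsrp, an angioblast factor gene (adjusted p = 0.0211), and 0.69 for clec14a, an endothelial lectin gene (adjusted p = 0.0322). The etsrp and clec14a calls were lost without any one of the control arrays (etsrp 0.49 to 0.55, clec14a 0.65 to 0.75), all 3 calls were lost with a variance for each group, and the cdh5 call also with normexp (0.15). Of the 12 genes not called, gata2a (-0.42), aplnra (-0.24), erg (-0.22), aplnrb (-0.20) and fli1rs (-0.09) had log2 changes below 0, and the others above 0. The defining markers pecam1a and esama had no probe that entered the fit. Of 9 measured arterial, venous and Notch genes, 1 fell, prox1a (-0.58, adjusted p = 0.0204), a lymphatic factor gene that other tissues also use. The other 8 did not pass, among them ephb4a (-0.29, adjusted p = 0.285) and dll4 (0.19, adjusted p = 0.285). Without gata5/6 morpholino replicate 2 the ephb4a change was -0.54. The prox1a call was lost without any one of the control arrays (-0.63 to -0.54) and with a variance for each group.

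Markers of other cell types moved in the same comparison, and their part in the kdr and flt4 values was not tested. Of 7 measured cardiac genes, 6 fell and 1 did not pass, with nkx2.5 at least 7.53-fold and nppa at least 1.53-fold higher in controls and tnnt2a at a log2 change of -3.31 (adjusted p = 0.000145, 0.00141 and 0.000204 by limma). Of these 6 genes, 4, among them nkx2.5 and nppa, were too dim on both gata5/6 morpholino arrays and entered the fit through the control arrays alone. The summed cardiac signal was 5662% to 6974% in the gata5/6 morpholino arrays, against 6487% to 6848% in the control arrays, nearly all of it from actc1a (log2 change -0.02, adjusted p = 0.940). Without actc1a it was 165.2% to 202.4% in the gata5/6 morpholino arrays, against 441.2% to 467.7% in the control arrays. The genes myl7 and myh6 had no probe that entered the fit. Of 7 myeloid genes 4 fell, led by spi1b (-2.11, adjusted p = 0.000323), irf8 (-1.41, adjusted p = 0.000913) and rac2 (-0.60, adjusted p = 0.0169), and the summed signal was 899.5% to 1028% in the gata5/6 morpholino arrays, against 1196% to 1382% in the control arrays. The rac2 call was lost without any one of the control arrays (-0.61 to -0.58) and with a variance for each group.

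Of 6 erythroid genes 2 rose. The log2 change of hbae1.1 was 0.61 (adjusted p = 0.0188 by limma) and that of hbbe2 0.88 (adjusted p = 0.0458), both from families of near-identical copies. The other fitted hbbe2 probe gave a smaller log2 change of 0.47. The gene hbbe3 did not pass (0.64, adjusted p = 0.145), and its log2 change was 1.03 without gata5/6 morpholino replicate 2. The globin gene hbae3 went the other way but did not pass (-0.38, adjusted p = 0.158 by limma). It had 305.8% and 237.5% in the gata5/6 morpholino arrays, against 364.8%, 371.9% and 316.9% in the control arrays. The log2 change was -0.09 for alas2 and 0.21 for gata1a, neither of them called. The summed erythroid signal was 1828% to 2189% in the gata5/6 morpholino arrays, against 1388% to 1568% in the control arrays. Without hbae1.1 the sums overlapped, at 652.5% to 889.7% in the gata5/6 morpholino arrays, against 630.4% to 736.2% in the control arrays. The hbae1.1 and hbbe2 calls were lost without any one of the control arrays (hbae1.1 0.57 to 0.64, hbbe2 0.78 to 1.01) and with a variance for each group. The hbbe2 call was also lost with quantile normalization, from the authors' table, with normexp and with no filter. Without gata5/6 morpholino replicate 1 the hbbe2 change was 0.62. Of 6 pronephros genes 1 rose and 3 fell, led by cdh17 (2.34, adjusted p = 0.000261), wt1a (-1.47, adjusted p = 0.00364) and lhx1a (-0.68, adjusted p = 0.0165), with sums of 872.8% to 990.8% in the gata5/6 morpholino arrays, against 695.5% to 759.2% in the control arrays. Without cdh17 the sums were 480.6% to 546.2% in the gata5/6 morpholino arrays, against 606.7% to 675.6% in the control arrays. The lhx1a call was lost without any one of the control arrays (-0.72 to -0.64) and with a variance for each group.

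Of 9 endoderm and yolk syncytial layer genes 4 rose and 1 fell, led by gata6, gata5 and apoa4a (-3.92, adjusted p = 0.000503), with sums of 10470% to 10820% in the gata5/6 morpholino arrays, against 4477% to 4817% in the control arrays. Without the morpholino targets gata5 and gata6, the sums were 1612% to 1667% in the gata5/6 morpholino arrays, against 2691% to 3028% in the control arrays. These lower sums rest on apoa4a, with 81.96% and 138.8% in the gata5/6 morpholino arrays, against 1619%, 1454% and 1796% in the control arrays. All other genes left in the list had log2 changes above 0, from 0.08 to 1.655. Sums without apoa4a as well were not taken. The neural (8 measured) and skeletal muscle (7 measured) lists had no call by limma and 0 genes with an unadjusted p under 0.05, with the smallest adjusted p for neurog1 (0.24, adjusted p = 0.202), sox19a (-0.15, adjusted p = 0.326), pax6a (-0.15, adjusted p = 0.328), myf5 (0.22, adjusted p = 0.243), ckma (0.23, adjusted p = 0.425) and tnnc2.2 (0.13, adjusted p = 0.449). Their sums were 6334% to 6446% in the gata5/6 morpholino arrays, against 6589% to 6656% in the control arrays for the neural list. For skeletal muscle they were 4135% to 4224% in the gata5/6 morpholino arrays, against 3926% to 4079% in the control arrays. Without sox19a the neural sums overlapped, and without myf5 or actc1b those of skeletal muscle did. The myf5 change was 0.33 without gata5/6 morpholino replicate 2.

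The values of kdr, flt4 and kdrl were set against the processing. The kdr brightest probe kept a log2 change of -2.34 to -2.25 when any one array was left out, and flt4 kept -1.13 to -1.11. The normexp background correction started from the spots' median signals, added an offset of 50 and was followed by quantile normalization between arrays. Under it, the kdr probes gave -0.98, -0.66 and -0.39 and flt4 -0.76, with kdrl at 0.04. The offset shrinks log2 changes of dim probes by construction, but its share in these values was not tested.

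**Figure D5:**
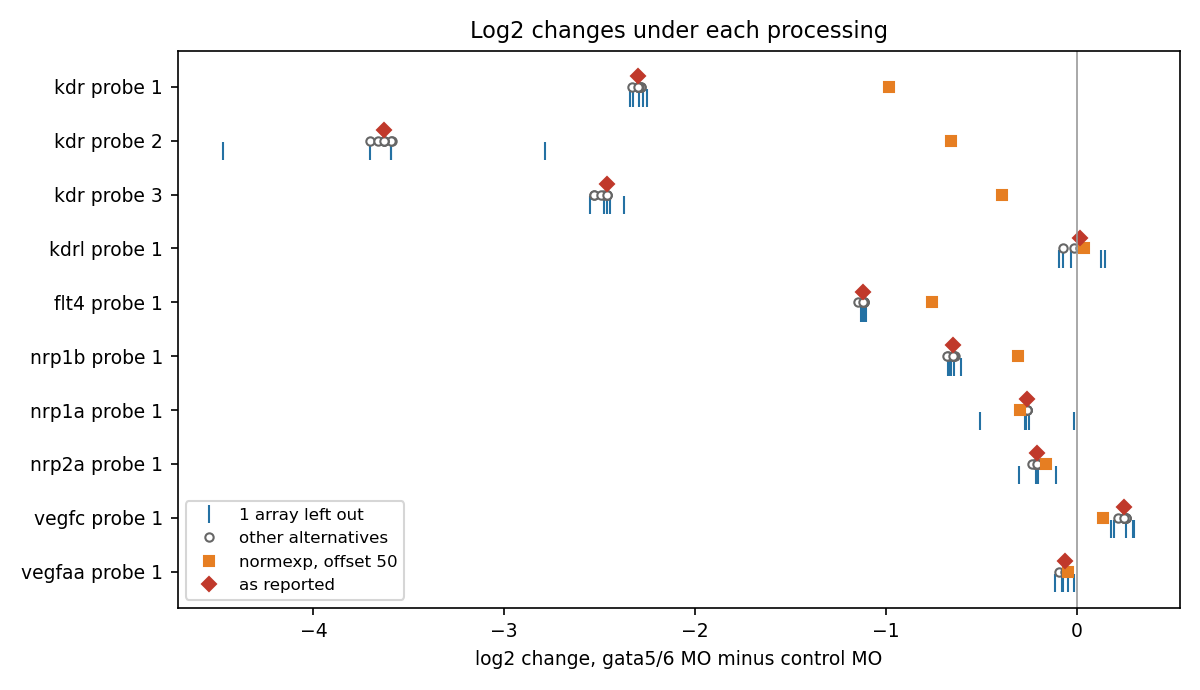
Each row is a member probe, numbered by brightness; the horizontal axis is the log2 change under the reported processing (diamonds), with 1 array left out (ticks), with normexp (squares) and under the other alternatives (open circles). The kdr and flt4 values stay at or below -0.39 in every processing shown, kdrl stays between -0.09 and 0.15, and normexp brings the kdr values closest to 0.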

How the data were processed

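Total RNA of 5 samples of whole embryos was amplified and labelled with Cy3, per the labels. The deposited processed signal is, per the file headers, an intensity from Agilent Feature Extraction 10.7.3.1 (10.7.1.1 in the submitters' processing notes), background-subtracted within the array and not scaled between arrays. The deposited value table holds log2 values with a median of 6.095 per array, and the sources used here do not name its between-array method. Each processed signal was divided by the 75th percentile of its array's non-control probes and put on the log2 scale. Control spots and 52 probes with an outlier spot were left out, and 30616 probes well above background on every array of a group were kept. Accessions were matched without versions to the RefSeq table of GRCz12tu, for names alone (25598 probes matched). The comparison used limma 3.58.1 under R 4.3.3 (lmFit, eBayes, 3 residual degrees of freedom, two-sided, Benjamini-Hochberg over all probes). It was also run on simulated data with the same spread in both groups, which cannot check it for the unequal spreads found here. A listed gene is its brightest probe. The members, lists and rules were chosen with earlier results of these data known. Named were all members, the 3 measured genes per list that had the lowest adjusted p, and the 5 nearest to kdr. The genes lnx1, srd5a3, pecam1a, esama, myl7, myh6, lmo2, egfl7, tal1, dusp5, actc1a and actc1b were named after their values were seen. So were gata2a, aplnra, erg, aplnrb, fli1rs, hbae3, alas2 and gata1a. The number of arrays limits the precision.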

Additional observations from a re-analysis of the deposited data

How the results depend on the processing

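The 5 called member probes and the kdr minus kdrl difference were recomputed under 9 other settings and with each of the 5 arrays left out. They were also recomputed under 1 more setting, chosen after seeing the data (a variance for each group). The kdr minus kdrl log2 change was -2.42 to -2.22 with 1 array left out and -1.02 with normexp, whose offset shrinks dim signals by construction. The number of called member probes was 4 to 14 with 1 array left out, 3 at the gene level and 3 when a probe had to be well above background on all arrays, both of which test fewer probes by construction. Over all probes, 1863 were called higher and 1724 lower; with 1 array left out these were 770 to 6690 and 630 to 6867, the highest without gata5/6 morpholino replicate 2. They were 540 and 478 with a variance for each group and 846 and 774 at the gene level. Calls over the fixed gene lists, 30 in all, were 16 with a variance for each group and 17 to 63 with 1 array left out. The replicate block (replicates 1 to 3) gave 2112 and 2027 calls, 5 called member probes and a kdr minus kdrl change of -2.22. It called epas1b (1.03), pdgfrl (0.96) and ptk2aa (-0.99) by limma. Control replicate 3 has no partner in that fit, which has 1 residual degree of freedom and rests on 2 pairs. Deviations of same-numbered arrays correlated at 0.134 and 0.207, but the labels give the numbers no meaning and only 2 pairs exist, so they are not taken to pair the samples. Signs turned for small changes in pdgfab (0.017 with normexp, and -0.16 to 0.068 with 1 array left out), kita (0.0037 with normexp), tnnc2.2 (-0.00077 with normexp) and pdgfaa (0.0022 with the replicate block and without control replicate 3, 0.0035 without control replicate 1, and -0.094 to 0.093 with 1 array left out). The cause was not tested where none is given. Calls were also lost for cdh5, hbbe2 and ccbe1 with normexp, for etsrp with the replicate block (adjusted p = 0.081 by limma), for hbbe2 with quantile normalization and the authors' table, and for clec14a and hbbe2 with no filter. Signal near background limits flt1 and the second kdrl probe.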
